A study of Mus musculus with 2 samples.

Results

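The SLC25 family comprises the carriers that move nucleotides, phosphate, organic acids, amino acids, cofactors and iron across the inner mitochondrial membrane. The genes were taken from the count table by symbol, Slc25a followed by a number, with at least 10 counts in either library, which gave 42 of the 43 listed Slc25a genes among 19294 genes in all. The gene just inside this minimum was Slc25a2, with 3 counts in control mIOs and 10 counts in the DSS library. The gene just outside was the processed pseudogene Slc25a5-ps, with 2 counts in each. Carriers of the family known by other symbols, such as the uncoupling protein Ucp2, are not members and are described only beside them.

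The study compared mouse intestinal organoids (mIOs) treated with dextran sulfate sodium (DSS), the sulfated polymer commonly used to induce colitis in rodents, with control mIOs. Both cultures came from Lgr5-EGFP-IRES-creERT2 mice, which carry EGFP and a tamoxifen-inducible Cre at the Lgr5 locus, and both were maintained with EGF, Noggin and R-spondin in Matrigel. The labels give 1 library for each condition. The sample titles give day 4 for both, without saying whether this counts culture or DSS exposure. Neither the DSS concentration used for sequencing nor the number of animals behind a culture is given in the sources used here. No difference has a replicate check, and no p-value, SD or SE can be given. Differences are given per gene as log2 ratios, DSS over control, of TMM-scaled counts. The exact 95% counting interval that follows a ratio covers counting error only. CPM denotes counts scaled to a common library size, and is given per kb of transcript wherever genes are compared with each other.

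Mitochondrial carriers are small membrane proteins built from 3 homologous repeats, encoded in the nucleus and inserted into the inner membrane by the TIM22 complex. They link the matrix to the cytosol. ADP/ATP and phosphate carriers supply and empty the ATP synthase, the citrate and oxoglutarate carriers connect the citric acid cycle to cytosolic pathways, and the ornithine carrier serves citrulline synthesis, which in the small intestine takes place in enterocytes. Absorptive enterocytes are rich in mitochondria, and the stem cells of the crypt base divide to renew the epithelium.

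Sequencing depth was 65493032 counts for control and 59746968 for DSS mIOs, of which the carriers made up 0.337% and 0.361%. The labels give intestinal stem cells as the cell type. The cell type markers of the epithelium differed widely between the libraries: all 8 enterocyte markers were at a log2 ratio of 1 or more, and their summed level was 2009 CPM in control mIOs and 20295 CPM in the DSS library. All 5 goblet cell markers were at 2 or more, from 703 to 11136 CPM in sum, and all 3 enteroendocrine markers were at 1 or more, from 686 to 3451 CPM. In the other direction, 6 of 7 proliferation markers were at -2 or less, with sums of 1346 and 244 CPM, and 5 of 5 stem cell markers were at -1 or less, with 832 and 130 CPM. Over all genes with at least 10 counts, 19.3% lay at 1 or more and 7.87% at 2 or more. At -1 or less lay 20.2% of them, and at -2 or less 6.54%. The 3 Paneth cell markers (276 and 134 CPM) and the 3 tuft cell markers (6.92 and 2.54 CPM) were below 0. By RT-PCR of DSS-treated mIOs, the paper found Lgr5 and Lyz decreased, but Vil1, Muc2 and Chga at similar levels. In the libraries, Lyz1 was at -1.06, whereas Vil1, Muc2 and Chga were at 1.25, 4.98 and 2.60. The dose and day of that RT-PCR are not given in the sources used here, and the discrepancy was not tested. Of 5 fibroblast markers 2 are listed, at most at 29 counts in a library, and none of the 4 immune cell markers is listed. In these bulk libraries, fewer cells of a type and less RNA per cell cannot be told apart, and the part of cell composition in the values below was not tested.

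As a family, the carriers were slightly higher in the DSS library. The summed level of the 42 genes was 3084 CPM in control mIOs and 3941 CPM in the DSS library, at a log2 ratio of 0.35 and an interval of 0.35 to 0.36, against 0.26 for the sum of all genes with at least 10 counts. The median log2 ratio of the members was 0.34, with 27 above 0 and 15 below, whereas the median of the 17235 genes with at least 10 counts was -0.06. Total counts in place of TMM factors lowered every gene by 0.26 and left the median of the members at 0.09. The offset of the members from all genes, 0.40 between the medians and 0.10 between the summed counts, does not depend on the scaling. With TMM factors, the interval of single genes lay above 0 for 25 members, below 0 for 13 and included 0 for 4. This split depends on the scaling. The same count over all genes was not made, so it is not a result about the carriers.

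At a log2 ratio of 1 or more, that is 2-fold or beyond, lay 10 of the 42 carriers (23.8%), where the share over all genes was 19.3%. At -1 or less lay 5 (11.9%), where the share over all genes was 20.2%. Between -0.5 and 0.5 lay 18 members (42.9%), against 35.8% of all genes. The quartiles of the members ran from -0.37 to 0.82, and those of all genes from -0.79 to 0.73. At 2 or more lay 2 carriers, Slc25a45 and Slc25a2, with 7.87% of all genes past that line, and 0 carriers lay at -2 or less, with 6.54% of all genes there. Among the 38 carriers with at least 100 counts in either library, 8 were at 1 or more, with 15.1% of all such genes there, and 5 at -1 or less, with 20.5% of all such genes there. With total counts only, the split of the 42 carriers was 6 at 1 or more and 7 at -1 or less. The upward share lay near the background.

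**Figure D1:**
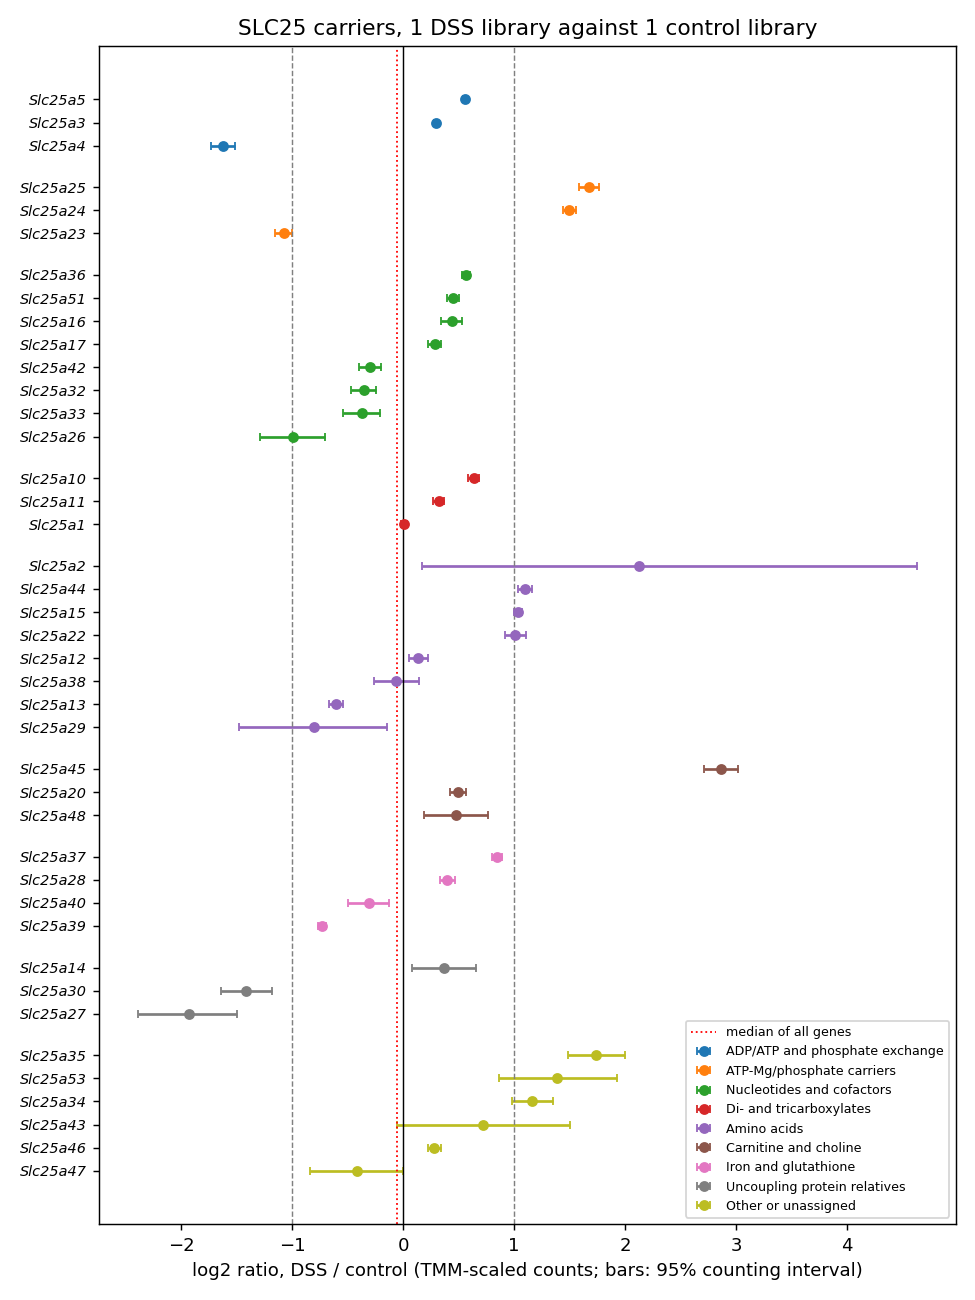
Log2 ratio of DSS over control for the carriers reported here, grouped by role, with bars for the 95% counting interval. Dashed lines mark -1 and 1, and the dotted line marks the median of all genes at -0.06. The carriers spread from -1.93 (Slc25a27) to 2.86 (Slc25a45), and the widest interval is that of Slc25a2, which has 10 counts at most.

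The most abundant carriers were those of ATP supply. Slc25a5, an ADP/ATP carrier, had 39447 counts in control mIOs and 44296 in the DSS library. Per kb of transcript this was 444 and 653 CPM, the highest level of the family in both libraries, and the log2 ratio was 0.56 with an interval from 0.54 to 0.58. Slc25a3, which brings phosphate into the matrix, had 41068 and 38480 counts, or 387 and 475 CPM per kb, and a log2 ratio of 0.29 (interval from 0.27 to 0.31). Together they took 36.5% of the members' counts in control mIOs and 38.4% in the DSS library.

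Slc25a4, the other listed ADP/ATP carrier and the form typical of heart and skeletal muscle, had 3712 counts in control mIOs and 923 in the DSS library. Its level was 3.07-fold lower under DSS, at a log2 ratio of -1.62 (interval from -1.72 to -1.51). Slc25a4 thus made up 8.60% of the counts of the pair in control mIOs (exact interval from 8.34% to 8.87%) and 2.04% in the DSS library (from 1.91% to 2.18%). The ratio of the carriers to each other does not depend on the scaling. Per kb, Slc25a5 was 16.5 times as abundant as Slc25a4 in control mIOs and 74.5 times in the DSS library. Of the 50-base words of the Slc25a5 transcript, 46.6% also occur in transcripts of 9 other annotated genes named Gm or -ps, so its count is uncertain where reads were placed on them. No such word of Slc25a4 occurs in another gene.

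Next in level per kb stood Slc25a39, Slc25a1 and Slc25a11. Slc25a1 exports citrate, the source of cytosolic acetyl units for lipid synthesis, and had 21717 and 16683 counts, or 258 and 259 CPM per kb. Its log2 ratio of 0.01 had an interval from -0.02 to 0.04, and was -0.25 with total counts only. Slc25a11, the oxoglutarate carrier of the malate-aspartate shuttle, stood at 122 and 153 CPM per kb and a log2 ratio of 0.32. Slc25a10, the dicarboxylate carrier, had 6943 and 8237 counts and a log2 ratio of 0.64 (interval from 0.59 to 0.68). None of the 3 listed carriers of di- and tricarboxylates was past 1 in either direction. Of all genes, 19.3% lay at 1 or more and 20.2% at -1 or less.

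Levels per kb rest on the median length of the annotated protein-coding transcripts, which short partial models lower for some genes. With the longest transcript, Slc25a39 stood at 163 CPM per kb in the control in place of 374, and Slc25a11 at 55.1 in place of 122, while these 5 genes still led the control library, with Slc25a1 ahead of Slc25a39.

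**Figure D2:**
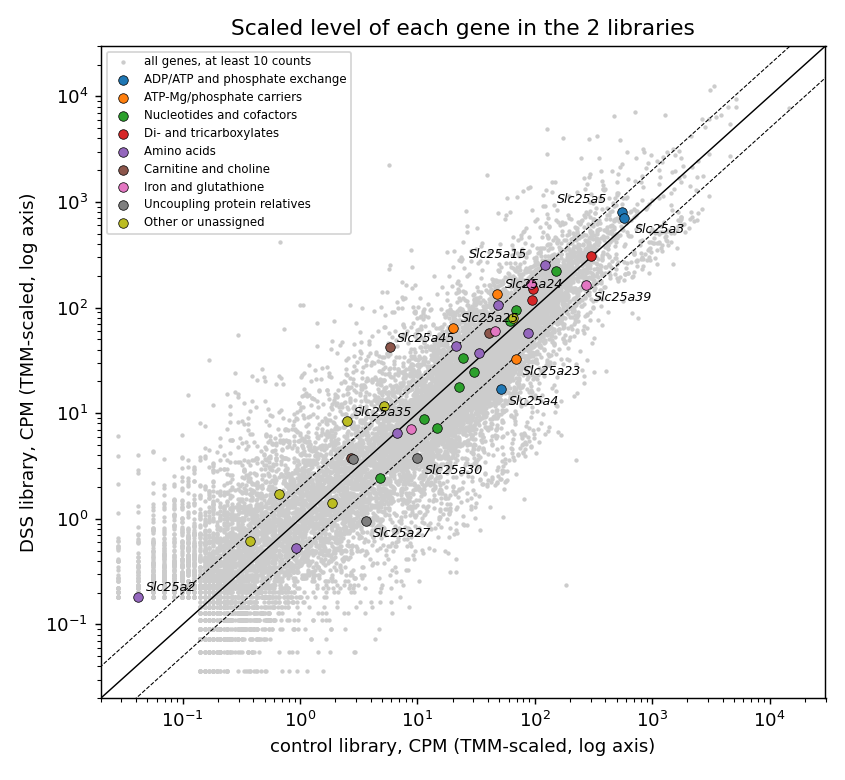
Scaled level of every gene with at least 10 counts (grey) and of the carriers (colored by role) in the control library (x axis) and the DSS library (y axis), both in CPM on log axes. The solid line marks equal levels and the dashed lines a 2-fold difference. Slc25a5 and Slc25a3 lie at the upper end close to the solid line, and Slc25a45 lies farthest above it among the carriers with at least 50 counts.

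The ATP-Mg/phosphate carriers, which set the size of the adenine nucleotide pool of the matrix and carry a calcium-binding domain, differed among themselves. Slc25a25 had 1444 counts in control mIOs and 3527 in the DSS library, a 3.20-fold higher level and a log2 ratio of 1.68 (interval from 1.59 to 1.77). Slc25a24 had 3440 and 7419 counts, a log2 ratio of 1.497 (interval from 1.44 to 1.56). Slc25a23 had 4929 and 1786 counts, and its level was 2.11-fold lower at a log2 ratio of -1.08 (interval from -1.15 to -0.9976).

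The balance of the pair Slc25a23 and Slc25a24 differed between the libraries. Among the counts of Slc25a23 and Slc25a24, Slc25a23 took 58.9% in the control (interval from 57.8% to 60.0%) and 19.4% in the DSS library (from 18.6% to 20.2%). Per kb of the median transcript, Slc25a23 was at 89.9 CPM and Slc25a24 at 14.0 CPM in control mIOs, and at 42.6 and 39.5 CPM in DSS mIOs. The order in DSS mIOs rests on short transcript models of Slc25a23, which was at 20.5 and 9.72 CPM per kb of its longest transcript while Slc25a24 kept its values. The summed level of the 3 genes was 137 CPM in control mIOs and 233 CPM in the DSS library.

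The largest ratio of the family belonged to Slc25a45, reported to carry methylated basic amino acids such as the precursor of carnitine. It had 416 counts in control mIOs and 2306 in the DSS library. The level was 7.26-fold higher under DSS, with a log2 ratio of 2.86 and an interval from 2.71 to 3.01, at the percentile 96.4 of all genes. The carnitine/acylcarnitine carrier Slc25a20, which brings long-chain acyl groups into the matrix for β-oxidation, had 2892 and 3116 counts and a log2 ratio of 0.50 (interval from 0.42 to 0.57). Slc25a48, a choline carrier, had 196 and 208 counts and a log2 ratio of 0.47 (interval from 0.19 to 0.76).

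Among 7 genes of carnitine transport, the carnitine shuttle and β-oxidation, 2 were at 1 or more and none at -1 or less. Over all genes, 19.3% and 20.2% lay there. The median of the 7 genes was 0.32. Crat, carnitine acetyltransferase, was at 1.62 with 2112 and 4957 counts, and Slc22a5, the plasma membrane carnitine transporter, was at 1.30 with 1128 and 2126 counts. Cpt1a and Cpt2, the acyltransferases on either side of Slc25a20, were at 0.32 and 0.34.

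Of the 8 listed amino acid carriers, 4 lay at 1 or more and 0 at -1 or less, where 19.3% and 20.2% of all genes lay, and the median was 0.57. Slc25a44, a carrier of branched-chain amino acids, had 3501 and 5723 counts and a log2 ratio of 1.10 (interval from 1.04 to 1.16). Slc25a15, the ornithine carrier, had 8785 and 13770 counts and a log2 ratio of 1.04 (interval from 0.9982 to 1.08). Slc25a22, a glutamate carrier, had 1539 and 2371 counts and a log2 ratio of 1.01 (interval from 0.92 to 1.11). These 3 lie so close to the line that total counts in place of TMM factors put them under it, at 0.84, 0.78 and 0.76. Slc25a2, a second ornithine carrier, was at 2.13 with an interval from 0.17 to 4.62 on its 3 and 10 counts.

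Slc25a15 differed in direction from most enzymes of ornithine and citrulline metabolism. Of 10 such genes, 8 were below 0, 5 at -1 or less and 1 at 1 or more, and the median was -0.997. Over all genes, 52.0% were below 0, 20.2% at -1 or less and 19.3% at 1 or more. Otc, which uses the imported ornithine to form citrulline, had 5387 and 5196 counts and a log2 ratio of 0.34 (interval from 0.28 to 0.39). Cps1, which makes the carbamoyl phosphate for this step, had 66011 and 19026 counts and a log2 ratio of -1.41. Oat, which interconverts ornithine and glutamate semialdehyde, had 152185 and 44393 counts and a log2 ratio of -1.39. At the extremes of the list were Arg2, the mitochondrial arginase that releases ornithine, at 3.003 with 2348 and 14382 counts, and Pycr1, of proline synthesis, at -2.24 with 2217 and 358 counts.

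The aspartate/glutamate carriers, which drive the malate-aspartate shuttle, lay on both sides of 0. Slc25a13 (citrin) had 6253 and 3136 counts and a log2 ratio of -0.61 (interval from -0.67 to -0.54), and Slc25a12 (aralar) had 2415 and 2027 counts and a log2 ratio of 0.14 (interval from 0.05 to 0.22). Slc25a12 turned to -0.12 with total counts only. The share of Slc25a12 in the pair's counts was 27.9% in control mIOs and 39.3% in the DSS library. Per kb of the median transcript, its share was 15.8% and 23.9%. Among the 4 shuttle enzymes, Got2, the matrix transaminase, was at -1.02 with 15044 and 5667 counts, Mdh2, the matrix malate dehydrogenase, at 0.86 with 44083 and 61173 counts, and Mdh1 and Got1, of the cytosol, at 0.70 and 0.02. The remaining amino acid carriers were the glycine carrier Slc25a38, at -0.06 with an interval from -0.26 to 0.14, and the basic amino acid carrier Slc25a29, at -0.80 with 66 and 29 counts.

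Of the 9 listed carriers of nucleotides and cofactors, none was at 1 or more, where 19.3% of all genes lay, and 4 were above 0 and 5 below. The carriers of pyrimidine nucleotides, the building blocks of mitochondrial DNA and RNA, lay apart. Slc25a36 had 10753 and 12194 counts and a log2 ratio of 0.57 (interval from 0.53 to 0.61), and Slc25a33 had 813 and 480 counts and a log2 ratio of -0.37 (interval from -0.54 to -0.21). Slc25a36 shares 11.8% of its 50-base words with 1 other annotated gene. Of 8 genes of mitochondrial nucleotide use, 6 were below 0, against 52.0% of all genes, and the median was -0.48. Nme4, a mitochondrial nucleoside diphosphate kinase, was at -2.75 and Tfam, which packages and transcribes mitochondrial DNA, at -1.03.

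Slc25a26, which imports S-adenosylmethionine, had 346 and 133 counts and lay just short of the line at -0.99 (interval from -1.29 to -0.70). The folate and FAD carrier Slc25a32, with 1616 and 965 counts, was at -0.36 (interval from -0.47 to -0.24). Among 10 genes of mitochondrial one-carbon metabolism, 8 were below 0 and 5 at -1 or less, where 52.0% and 20.2% of all genes lay. The median of this list was -0.82. In that list, Shmt2, the serine hydroxymethyltransferase of the matrix, was at -1.91 with 10326 and 2102 counts, and Gldc, of the glycine cleavage system, had 9 and 55 counts, with an interval from 1.97 to 4.20. Mthfd1l was at -1.88.

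Slc25a51, Slc25a16, Slc25a42 and Slc25a17 lay within 0.5 of 0. Slc25a51, which imports NAD, was at 0.45 with 4992 and 5203 counts. Slc25a16 and Slc25a42, both linked to coenzyme A, were at 0.44 (interval from 0.34 to 0.53) and -0.30 (interval from -0.40 to -0.20). The peroxisomal Slc25a17 was at 0.28.

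The iron carriers (mitoferrins) and the glutathione carriers differed in direction. Slc25a37 had 6667 and 9160 counts and a log2 ratio of 0.85 (interval from 0.80 to 0.89), and Slc25a28 had 3264 and 3291 counts and a log2 ratio of 0.40 (interval from 0.33 to 0.47). Slc25a39, a glutathione carrier, had 19668 and 9037 counts and a log2 ratio of -0.73 (interval from -0.77 to -0.70). Its relative Slc25a40 had 628 and 387 counts and a log2 ratio of -0.31 (interval from -0.50 to -0.12). Slc25a37 and Slc25a40 share 8.07% and 10.3% of their 50-base words with 1 other annotated gene each.

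Mitochondrial iron serves heme and iron-sulfur cluster synthesis. Of 15 genes of these pathways, 7 were above 0 and 8 below, and the median was -0.05. Alas1, the first enzyme of heme synthesis, was at 1.19 with 5545 and 9647 counts. Abcb10, an inner membrane transporter that binds Slc25a37, was at 0.82.

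Of the relatives of the uncoupling proteins, 2 of 3 lay at -1 or less, where 20.2% of all genes lay. Slc25a27 had 259 counts in control mIOs and 52 in the DSS library, a 3.80-fold lower level and the lowest log2 ratio of the family at -1.93 (interval from -2.39 to -1.49). Slc25a30 had 713 and 205 counts and a log2 ratio of -1.41 (interval from -1.64 to -1.18). Slc25a14 had 204 and 201 counts and a log2 ratio of 0.37 (interval from 0.08 to 0.66). The summed level of the 3 genes was 16.4 CPM in control mIOs and 8.38 CPM in the DSS library. Ucp2, an uncoupling protein by name that matches no Slc25a symbol, had 27198 and 78545 counts and a log2 ratio of 1.92 (interval from 1.90 to 1.94).

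The remaining members have no firm role or act elsewhere. Slc25a35 had 179 and 457 counts and a log2 ratio of 1.74 (interval from 1.49 to 1.998), and its relative Slc25a34 had 374 and 640 counts and a log2 ratio of 1.16 (interval from 0.98 to 1.35). Slc25a53 was at 1.39 on 47 and 94 counts (interval from 0.87 to 1.93). Slc25a43, with 27 and 34 counts, was at 0.72, and Slc25a47, with 134 and 77 counts, was at -0.41, both with intervals that included 0, and Slc25a46, of the outer membrane, was at 0.28 with 4711 and 4377 counts.

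Carriers of like or related substrates were compared in pairs. Of 14 pairs written by hand, with 25 genes in all and some genes in more than 1 pair, 8 had log2 ratios of opposite sign, and 7 with total counts only, because of Slc25a12. Of the 861 possible pairs among the 42 carriers 47.0% had opposite signs, so the share among the pairs of like substrates lay near that of carriers in general. The difference between the members of a pair does not depend on the scaling, and its counting interval excluded 0 for 13 pairs. The exception was Slc25a2 with Slc25a15, where Slc25a2 has 3 and 10 counts. The same count over the 861 possible pairs was not made, so it is not a result about like substrates. The largest differences were those of Slc25a25 over Slc25a23, at 2.75 on the log2 scale (interval from 2.63 to 2.87), of Slc25a24 over Slc25a23, at 2.57 (from 2.48 to 2.67), of Slc25a5 over Slc25a4, at 2.18 (from 2.07 to 2.28), and of Slc25a14 over Slc25a30, at 1.78 (from 1.41 to 2.15). The smallest was that of Slc25a25 over Slc25a24, at 0.18 (from 0.07 to 0.29). These intervals cover counting error in 2 libraries and not the spread between cultures.

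**Figure D3:**
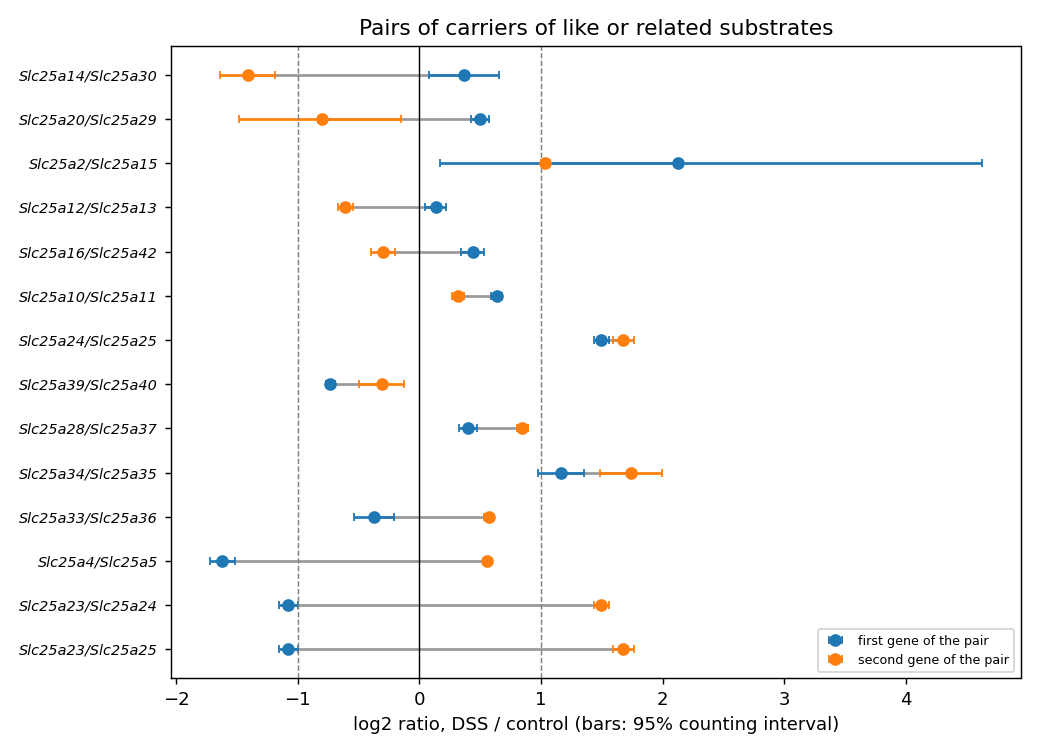
Log2 ratio of DSS over control for both genes of each of the 14 pairs, with bars for the 95% counting interval and a grey line joining the pair. Blue is the gene named first and orange the gene named second. The pairs at the bottom are spread widest in favor of the second gene, with Slc25a23 at -1.08 against Slc25a25 at 1.68, and Slc25a14 at 0.37 lies above Slc25a30 at -1.41 at the top.

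The promoters of the pairs Slc25a4 with Slc25a5 and Slc25a23 with Slc25a24 are shown because the genes of each pair share a substrate and had opposite directions. For each, the 100 bases before an annotated start site are printed, 5′ to 3′ on the strand of the gene, from RefSeq on GRCm38.p6. Slc25a23 has 2 annotated start windows, of which the first listed was used. Capitals mark CG dinucleotides, a feature chosen after the values were seen. Slc25a4 lies on the minus strand at chr8:46211063-46211162 and holds 10 of them, Slc25a5 on the plus strand at chrX:36795497-36795596 and holds 11, Slc25a23 on the minus strand at chr17:57059864-57059963 and holds 4, and Slc25a24 on the plus strand at chr3:109123049-109123148 and holds 9.
Slc25a4: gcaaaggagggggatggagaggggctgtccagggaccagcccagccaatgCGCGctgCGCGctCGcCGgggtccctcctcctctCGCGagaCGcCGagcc
Slc25a5: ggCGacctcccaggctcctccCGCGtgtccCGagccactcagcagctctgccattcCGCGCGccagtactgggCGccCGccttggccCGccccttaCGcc
Slc25a23: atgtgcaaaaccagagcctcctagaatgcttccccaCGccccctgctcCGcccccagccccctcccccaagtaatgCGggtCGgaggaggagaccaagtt
Slc25a24: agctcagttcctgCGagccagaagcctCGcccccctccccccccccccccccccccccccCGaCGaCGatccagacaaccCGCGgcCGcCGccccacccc

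Over windows of 250 bases before to 50 after the start, the members had a median of 16 CG dinucleotides in 41 windows of 32 genes, and all genes with at least 10 counts had a median of 18 in 15665 windows. The start sites used in these organoids were not measured.

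The E-box CACGTG, which reads the same on both strands and is bound by MYC and other factors, was found in the windows of 6 of 32 members (18.8%), where 11.2% of genes with at least 10 counts hold it. The core of the NRF1 motif, GCATGCGC on either strand, was in the window of 0 members, where 5.22% of those genes hold it. The longer NRF1 word, which contains this core, was likewise in 0, against 2.01%. The E-box is printed in capitals with up to 17 bases on either side, within the window and before the start site, because its members include the ornithine, citrate and citrin carriers described above. They lie on the minus strand at chr4:149774268-149774292 (Slc25a33), chr6:6217276-6217315 (Slc25a13), chr8:22398332-22398371 (Slc25a15), chr9:97111206-97111245 (Slc25a36) and chr16:17928436-17928469 (Slc25a1), and on the plus strand at chrX:48623377-48623416 (Slc25a14).
Slc25a33: cacggcccggcctccgcCACGTGac
Slc25a13: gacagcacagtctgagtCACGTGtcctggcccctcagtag
Slc25a15: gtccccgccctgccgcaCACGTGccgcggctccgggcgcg
Slc25a36: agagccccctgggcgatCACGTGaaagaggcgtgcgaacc
Slc25a1: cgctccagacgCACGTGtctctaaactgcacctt
Slc25a14: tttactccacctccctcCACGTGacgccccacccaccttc

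The log2 ratios of these 6 genes were -0.37, -0.61, 1.04, 0.57, 0.01 and 0.37 in the order shown, without a common direction. Myc itself had 5101 and 994 counts and a log2 ratio of -1.97, and Nrf1 had 1963 and 953 counts and a log2 ratio of -0.65. A match is a description of letters, and binding was not measured.

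The TIM22 route inserts carriers into the inner membrane. Of its 8 listed genes, 7 were below 0 and 4 at -1 or less, with a median of -0.96, where 52.0% of all genes were below 0 and 20.2% at -1 or less. Agk, a subunit of the TIM22 complex, was at -1.58 with 948 and 243 counts, Timm8a1 at -1.43, and Timm22, the channel itself, at -0.72 with 1255 and 584 counts. The small chaperones of the intermembrane space Timm9 and Timm10 were at -1.42 and -1.21.

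Further gene groups are given beside the carriers, whose median was 0.34. Over all genes, 35.8% lay between -0.5 and 0.5, 19.3% at 1 or more, 20.2% at -1 or less and 52.0% below 0. Of 89 nuclear genes with symbols of respiratory chain subunits, 77 lay between -0.5 and 0.5, 1 at 1 or more and 3 at -1 or less, with a median of 0.10. The extremes were Cox6b2 at -3.49 and Cox7a1 at 1.66. Of the 89 genes, 7 have symbols with -ps, as pseudogenes do, and the median of the other 82 was 0.09. Of 82 genes with symbols of mitochondrial ribosomal proteins, 69 were below 0 and 10 at -1 or less, with a median of -0.55. They include 4 pseudogenes, 2 of which, Mrps36-ps1 and Mrps36-ps2, were the highest of the list at 0.60 and 0.73, and the median of the other 78 was -0.56. The VDAC channels of the outer membrane, through which the substrates of the carriers pass, ran from -0.15 to 0.32. Of 6 genes that form or use citrate, none was past 1 in either direction, with Acly, the cytosolic enzyme that cleaves exported citrate, at -0.75 and Me1 at 0.69. Of 237 other Slc genes with at least 10 counts, 100 (42.2%) lay at 1 or more and 25 (10.5%) at -1 or less, with a median of 0.51. No difference between these lists was tested.

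**Figure D4:**
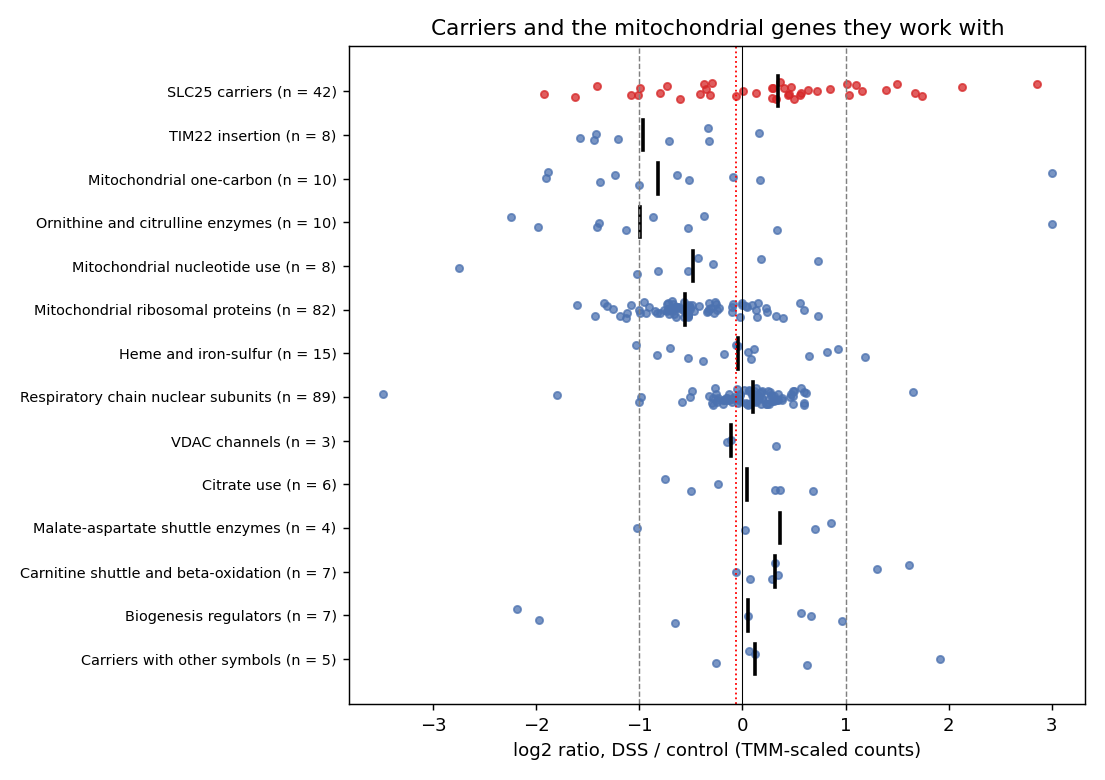
Log2 ratio of DSS over control for the carriers (red) and for genes of the mitochondrial pathways they serve (blue), 1 point per gene with at least 10 counts, with a black bar at the median of each list. The dotted line is the median of all genes at -0.06. The respiratory chain subunits cluster around 0.10, the TIM22 and ornithine lists center near -1, and the carriers spread on both sides with a median of 0.34.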

How the data were processed

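Stranded poly(A) mRNA-seq was performed on 1 control and 1 DSS-treated culture. The authors deposited unnormalized read counts, with genes named by NCBI identifier and symbol. The submitters' processing notes name HISAT2 and StringTie, and versions, genome build and annotation are not given in the sources used here. Files labelled as FPKM hold the same counts for all 19294 genes and were not used. The lowest count in the table is 1, so genes at 0 in a library are not in it, and 6 of 48 Slc25a symbols looked for are not listed.

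Scaling used TMM factors from edgeR 4.0.16 (R 4.3.3), 1.09 for the control and 0.915 for the DSS library. Log2 ratios carry exact Clopper-Pearson 95% intervals, and differences within pairs carry exact conditional intervals. The computation was tested on simulated counts with counting error only, which cannot test for the spread between cultures. No test was possible with 1 library per condition. Levels per kb use GENCODE vM21 transcripts, available for all 42 members. Promoters are RefSeq windows on GRCm38.p6, matched for 32 members. Other tools were Python 3.11.15, numpy 2.4.6, pandas 2.3.3, scipy 1.17.1, statsmodels 0.14.6 and matplotlib 3.10.9.

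Members were taken by symbol pattern and count minimum. Role groups, pairs and partner lists were written by hand or, for large families, by symbol pattern. All were chosen with earlier results of these data known. Named in full were members with at least 50 counts past a log2 ratio of 1 in either direction, members of pairs, and the 5 highest levels per kb. From each partner list the genes with the largest ratios and those that act directly with a carrier were named. Amino acid sequences were not analysed here, and some genes that enter the counts and medians are not reported here. The alternatives tried are given in the closing section.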

Additional observations from a re-analysis of the deposited data

How the results depend on the processing

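No paired analysis was possible because each condition has 1 library. Settings tried were thinning of the control library, DESeq2 1.42.0 size factors, an added count of 2 in each library and other count minimums (none, 50 in either library, 10 in both). Removal of the trend with transcript length (span 0.3, lengths for 92.1% of genes) was also tried. With these, the number of carriers past a log2 ratio of 1 or -1 stayed within 1.5 times and the median within 0.094. This tolerance is the median half-width of the intervals of single carriers, not an error of the family median. With total counts only, 6 carriers were at 1 or more, the median was 0.088 and the ratio of the summed counts was 0.10. With upper quartile factors, 3 carriers were at -1 or less and the ratio of the summed counts was 0.44. Both settings move every gene alike by construction. Where the whole counting interval had to lie past the line, 5 carriers lay above 1 and 3 lay below -1. The sign of 2 carriers with total counts, Slc25a1 and Slc25a12, and of 1 with upper quartile factors, Slc25a38 at 0.03, differed from that with TMM factors, and that of none did with the size factors, the prior count or thinning. No carrier at or past 1 or -1 changed sign under the 5 settings run for single genes. Those that only rescale the libraries shift all genes alike by less than 1, so they could not have changed such a sign. Leaving pseudogene and opposite-strand symbols out of the respiratory chain, mitochondrial ribosomal and other Slc lists, chosen after the data were seen, gave medians of 0.09, -0.56 and 0.52. The longest transcript in place of the median length, added after the data were seen, moved the control levels per kb of Slc25a3, Slc25a39, Slc25a1 and Slc25a11. Depth limits Slc25a2, Slc25a29, Slc25a43 and Slc25a53, the 4 carriers with under 100 counts in both libraries.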

Other observations

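The regulators of mitochondrial biogenesis did not move together. Ppargc1a, a coactivator of genes for oxidative metabolism, had 1520 counts in control and 2263 in DSS mIOs, a log2 ratio of 0.96 (interval from 0.87 to 1.06). Ppargc1b was at 0.56 and the nuclear receptor Esrra at 0.67. Pprc1, the coactivator of the same family that is linked to growth, had 5041 and 846 counts and a log2 ratio of -2.19 (interval from -2.29 to -2.08). Gabpa was at 0.06. The median of the 7 listed regulators was 0.06.

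Only 2 genes of the mitochondrial genome are listed in the table, the ribosomal RNAs mt-Rnr1 and mt-Rnr2. They had 36546 and 99802 counts, and 60420 and 160895 counts, in control and DSS mIOs respectively, at log2 ratios of 1.84 and 1.80. The libraries are poly(A) mRNA-seq, and how far these counts reflect the amount of ribosomal RNA was not tested. The nuclear genes of mitochondrial ribosomal proteins, without pseudogenes, had a median of -0.56. The pyruvate carrier genes Mpc1 and Mpc2, which belong to another family, were at 0.63 and 0.07.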
